A study of Mus musculus with 11 samples.

Results

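Clec2e (ENSMUSG00000030155) and Clec2g (ENSMUSG00000000248) encode lectin-like proteins of the Clec2 family. They were the 2 rows with these gene names among the 178 genes of a deposited RNA sequencing table of mouse gingival epithelium. They were chosen by gene name after their normalised read counts over the naive, ligature and removal libraries had been seen, so their levels and differences between groups are given below as a description. Epithelium was lifted from the gingiva of male B6 mice with Dispase, an enzyme that detaches epithelial sheets, and polyA RNA was sequenced. Naive gingiva (4 libraries) came from mice without a ligature. For the ligature group (3 libraries) silk was tied around the second upper molar on both sides, which gathers plaque at the gum and causes periodontitis. For the removal group (4 libraries) the silk was tied in the same way and taken off on day 3. The labels do not give the age of the mice or the day of tissue collection, and they do not state whether each library is its own animal.

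Clec2 proteins sit in the cell membrane with a C-type lectin-like domain outside the cell. Their genes lie in the natural killer gene complex, interspersed with the Klrb1 genes, which encode the NKR-P1 receptors of natural killer cells and some T cells. The best known pair is Clec2d, also called Clr-b or Ocil, with the inhibitory receptor Klrb1b: cells that carry the ligand are spared, and cells that lose it become easier to kill. Clec2d was also described as an inhibitor of osteoclast formation in culture, which gave it the name osteoclast inhibitory lectin. RefSeq lists Clec2e as Clr-a and Clec2g as Ocilrp1, for osteoclast inhibitory lectin related protein.

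In GENCODE M21 both genes lie on chromosome 6, Clec2g on the plus strand and Clec2e on the minus strand. Clec2f (a pseudogene in GENCODE M21, protein-coding in RefSeq) and the receptor gene Klrb1f are among the genes annotated between them. None of the genes between them was in the deposited table. The 250 bases before the start of each gene are shown because the levels of both genes moved together across the libraries. Both windows also hold a match to the same loosely written motif, with different letters in each gene. Any part of this motif in the levels was not tested. Sequences are from RefSeq (build GRCm38.p6, while the submitters' processing notes name GRCm39 for the data). The Clec2e window is chr6:129100904-129101153 on the minus strand, and the Clec2g window is chr6:128934131-128934380 on the plus strand. Capitals mark matches to TGANTCA, a loose form of the AP-1 motif with any middle letter (N), and to the TATA box TATAAA.

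Clec2e: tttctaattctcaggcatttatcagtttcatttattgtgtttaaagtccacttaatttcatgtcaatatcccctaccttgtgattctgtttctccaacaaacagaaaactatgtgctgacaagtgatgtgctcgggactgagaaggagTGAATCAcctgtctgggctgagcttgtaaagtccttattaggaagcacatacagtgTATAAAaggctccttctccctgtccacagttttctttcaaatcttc

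Clec2g: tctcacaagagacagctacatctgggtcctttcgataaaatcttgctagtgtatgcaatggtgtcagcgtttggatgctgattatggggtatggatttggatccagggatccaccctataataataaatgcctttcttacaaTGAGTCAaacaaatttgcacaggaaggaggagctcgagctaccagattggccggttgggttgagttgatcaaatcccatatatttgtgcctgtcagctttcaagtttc

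Each window held 1 match to TGANTCA, a loose form of the AP-1 motif that allows any middle letter. The matched letters were TGAATCA in Clec2e and TGAGTCA in Clec2g. AP-1 sites are read by Fos and Jun dimers, and whether these dimers read either match was not tested. The match began 102 bases before the start in Clec2e and 108 bases before it in Clec2g. Of 27018 mouse promoters of the same length, 6.87% held TGANTCA, as did 8 of the 134 promoters matched to genes of the deposited table (5.97%). Within the Clec2 family, 3 of 7 promoters held it, those of Clec2e, Clec2g and Clec2h. The TATA box letters were found in Clec2e alone among the 7, 46 to 41 bases before the start, and in 13.0% of all promoters. The cAMP response motif TGACGTCA and the STAT motif TTCNNNGAA were in neither window (1.62% and 7.18% of all promoters). The NF-kappaB motif, read here as GGGA, any 4 letters and CC, was in the Clec2g window and not in that of Clec2e (17.3% of all promoters), and so was CCAAT (34.5%). Both strands were searched, no matches overlapped, and a match is a run of letters, not a bound site. Over their whole length, motif letters included, the 2 windows had 50.3% identical columns in a global alignment. Promoters outside the family were not aligned for comparison. The Clec2e window was 82.2% identical to that of Clec2h, whereas the other family members stood between 46.9% and 50.3% against Clec2e and between 45.3% and 51.9% against Clec2g.

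The table held 282274 to 503570 counts per library over its 178 genes, which is a part of each library and not its depth. In DESeq2 with a term for the library sets defined next, no gene of the table had an unadjusted p above 0.0103 in both the ligature and the removal comparison with naive. The genes of the table therefore appear to have been picked for differences between these groups. The deposited batch correction splits the libraries into 2 sets, found without use of the groups. Removal replicates 2, 3 and 4, ligature replicate 1 and naive replicates 1 and 2 made up set A, and the others made up set B. The labels give no batch, and p-values behind the calls below measure the spread between these libraries, which may be technical.

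Clec2e was a low-count gene whose level was smallest in the ligature libraries. Values are the deposited normalised read counts, which are scaled raw counts (1 size factor for each library). In naive libraries Clec2e stood at 135.0, 52.31, 23.77 and 83.48 (replicates 1 to 4). These values spanned a 5.68-fold range, more than counting error gives (chi-square per degree of freedom 26.3). With the ligature in place it stood at 21.30, 12.65 and 19.53. All 3 values lay below every naive value. At these low counts their spread was near counting error (chi-square per degree of freedom 1.24). The gap between the groups was narrow at its edge, since naive replicate 3 rested on 18 raw counts and ligature replicate 1 on 25. Their exact 95% Poisson intervals, 14.1 to 37.6 and 13.8 to 31.4 on the normalised scale, overlapped. After removal Clec2e stood at 30.15, 82.38, 80.66 and 79.09. All 4 values lay above every ligature value, and they overlapped the naive range. Group means were 73.65 ± 47.6 (SD, n = 4) in naive, 17.83 ± 4.57 (n = 3) in ligature and 68.07 ± 25.3 (n = 4) in removal libraries. The Poisson intervals above cover counting error only, whereas each SD is the spread between libraries.

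Clec2g had several times more reads and a narrower range. In naive libraries it stood at 461.0, 383.6, 303.7 and 403.3. With the ligature in place it stood at 276.9, 160.6 and 256.7, all below the lowest naive value. The coefficient of variation in the ligature group was 26.9% for Clec2g and 25.6% for Clec2e, but at the higher counts of Clec2g that spread exceeded counting error (chi-square per degree of freedom 17.7). After removal Clec2g stood at 289.2, 416.0, 392.4 and 380.6. The removal libraries again lay above all ligature libraries and inside or just below the naive range. Means were 387.9 ± 65.0 (SD, n = 4), 231.4 ± 62.2 (n = 3) and 369.6 ± 55.6 (n = 4) in naive, ligature and removal libraries. Per kilobase of annotated exon, the naive level was 136 ± 22.8 for Clec2g and 35.1 ± 22.7 for Clec2e (SD, n = 4), and the ligature level was 81.3 ± 21.8 and 8.49 ± 2.18 (n = 3). These are bulk libraries, in which fewer cells of a type and less RNA per cell cannot be told apart.

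**Figure D1:**
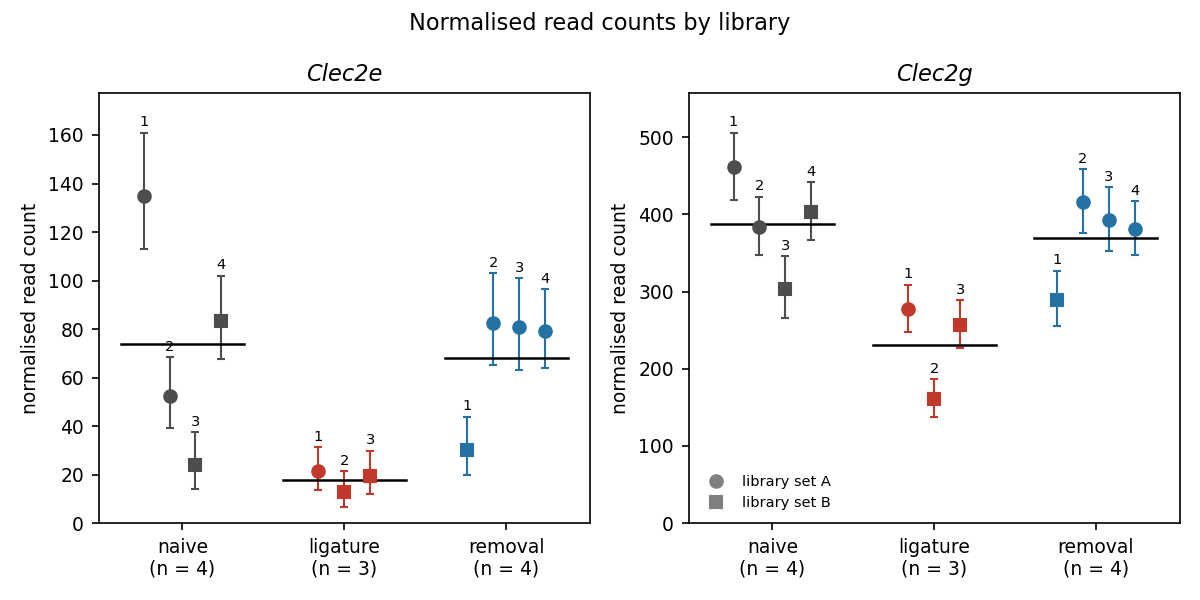
Normalised read count (vertical axis, from 0) of Clec2e and Clec2g in each library by group; bars on points are exact 95% Poisson intervals of the count, horizontal lines are group means, digits are replicate numbers, and circles and squares are library sets A and B. For both genes all 3 ligature libraries lie below all naive and all removal libraries, and replicate 1 is the lowest removal library.

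In both genes the order of the groups by mean was naive, removal, ligature. Removal and naive, the neighbours at the top, did not differ beyond their spread. In the edgeR fit of all 11 libraries Clec2e fell by 2.04 ± 0.55 on the log2 scale (SE) with the ligature in place, to 24.3% of the naive level. Clec2g fell by 0.75 ± 0.21, to 59.7%. Both were called at an adjusted p under 0.05, as were 85.2% of the 176 tested genes of this table (56.8% called lower and 28.4% higher), and nothing is read from these calls. Clec2e ranked 9 from the lowest of the 176 log2 fold changes and Clec2g ranked 53, where the median of all tested genes was -0.38. In 74.4% of the tested genes the libraries of these groups did not overlap.

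After removal the log2 fold change against naive was -0.12 ± 0.46 for Clec2e (95% interval -1.12 to 0.89) and -0.07 ± 0.19 for Clec2g (95% interval -0.48 to 0.34). Neither was called, against 37.5% of the tested genes called in this comparison (24.4% lower and 13.1% higher). The libraries of both genes overlapped between these groups, while 43.8% of the tested genes had no overlap. The intervals are wide, above all for Clec2e, so the fit does not show that the naive level had been regained. Against the ligature group, Clec2e rose by 1.92 ± 0.55 after removal, a 3.80-fold difference, and Clec2g rose by 0.67 ± 0.21, a 1.60-fold difference. Both were called, as were 19.9% of the tested genes (17.0% called higher and 2.84% lower). Clec2e ranked 3 from the highest of the 176 and Clec2g ranked 23, and the median of all tested genes was 0.20. The libraries of these groups did not overlap in 29.5% of the tested genes. The 3 comparisons share their libraries pairwise, so a low ligature group enters 2 of them.

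**Figure D2:**
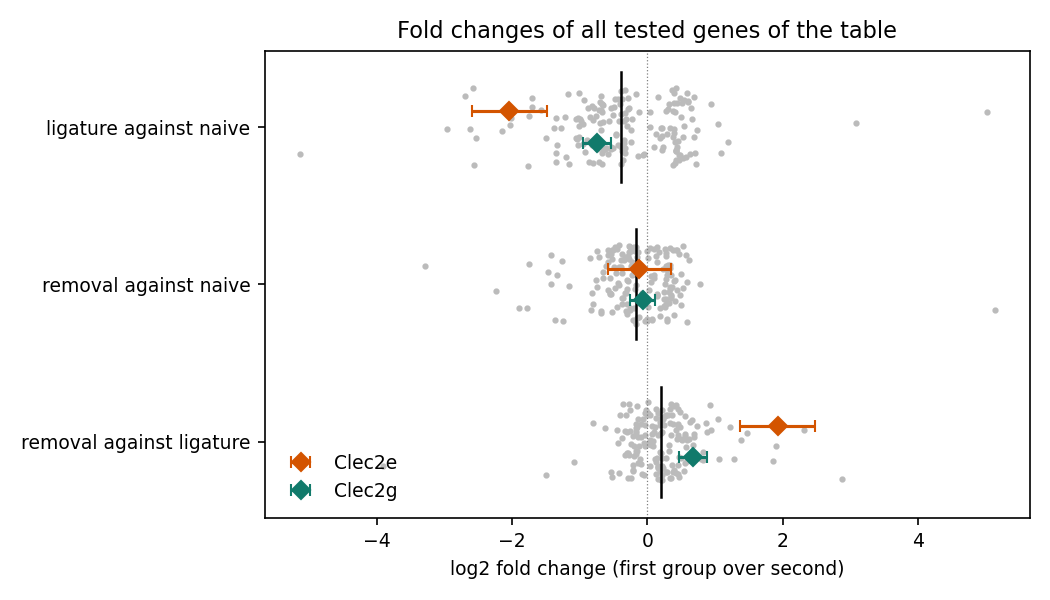
Log2 fold change (horizontal axis, first group over second) of the 176 tested genes in the 3 comparisons (rows); grey points are the other genes, spread vertically for legibility, black lines are medians, and diamonds with bars are Clec2e and Clec2g ± SE. Clec2e lies far from the median for ligature against naive (-2.04) and removal against ligature (1.92), Clec2g lies closer, and both sit near the median for removal against naive.

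Some of these calls moved with the scaling or with single libraries. With TMM factors computed over the table, the ligature value of Clec2g against naive was -0.39 and its call was lost, while that of Clec2e was -1.67 and was still called. For removal against ligature, the Clec2e call was lost without any 1 ligature library or without removal replicate 2, 3 or 4 (1.73 to 2.07), and the Clec2g call was lost without these and also without naive replicate 2 or 4 (0.47 to 0.82). In the whole table the number called in that comparison fell from 35 to 0 without ligature replicate 1 or 2 or removal replicate 2 or 4 in edgeR, with 49 to 72 genes at an unadjusted p under 0.05. Without removal replicate 1 both calls held, at 2.17 for Clec2e and 0.77 for Clec2g.

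**Figure D3:**
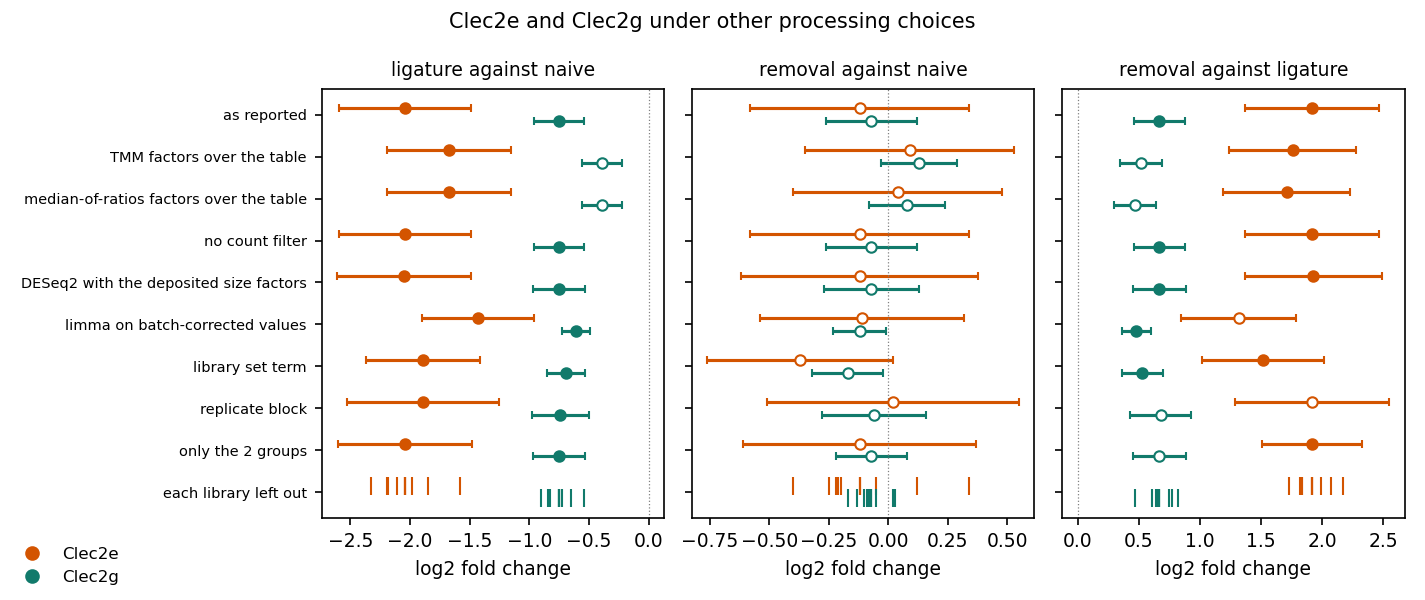
Log2 fold change ± SE (horizontal axis, first group over second) of Clec2e and Clec2g under each processing choice (rows) in the 3 comparisons (panels); filled circles were called at an adjusted p under 0.05 and open ones were not, and ticks in the last row are fits with 1 library left out. All ligature against naive values lie below 0, all removal against ligature values lie above 0, and removal against naive values lie on both sides of 0.

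The genes also followed each other inside the groups. Within the naive libraries both genes had the order replicate 1, 4, 2, 3 from high to low. Within the ligature libraries both had the order 1, 3, 2, which was also the order of the size factors. Within the removal libraries both had the order 2, 3, 4, 1. In the naive and removal libraries the size factors had another order. Over the 11 libraries the correlation of log2(normalised count + 1) was r = 0.93 (Spearman's rho 0.97), and it was 0.83 after the group means were taken out and 0.97 without the 2 libraries farthest from the Clec2e median, ligature replicates 2 and 3. These are descriptions of libraries that share groups, size factors and library sets. The median gene of the table had r = 0.49 with Clec2e and 0.57 with Clec2g, group differences included. The median with group means taken out, and the share of genes in the same order, were not computed. Clec2e moved over a wider range, with a slope of 2.34 log2 units per log2 unit of Clec2g.

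That wider range shows in the ratio of the 2 genes within a library, which a common scaling factor cannot change. There were 13.0, 12.7 and 13.1 Clec2g reads per Clec2e read in the ligature libraries. In removal replicates 2, 3 and 4 the ratio was 5.05, 4.86 and 4.81, and in removal replicate 1 it was 9.59. In naive libraries it was 3.41, 7.33, 12.8 and 4.83. The ligature ratios thus lay close together and above those of 3 of 4 naive and all 4 removal libraries, but naive replicate 3 lay among them. They rest on only 25, 13 and 21 raw Clec2e counts, and the exact 95% Poisson interval of the count of 13 was 6.92 to 22.2. The counting error of the ratios was not computed, so neither their closeness nor their separation is read further.

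**Figure D4:**
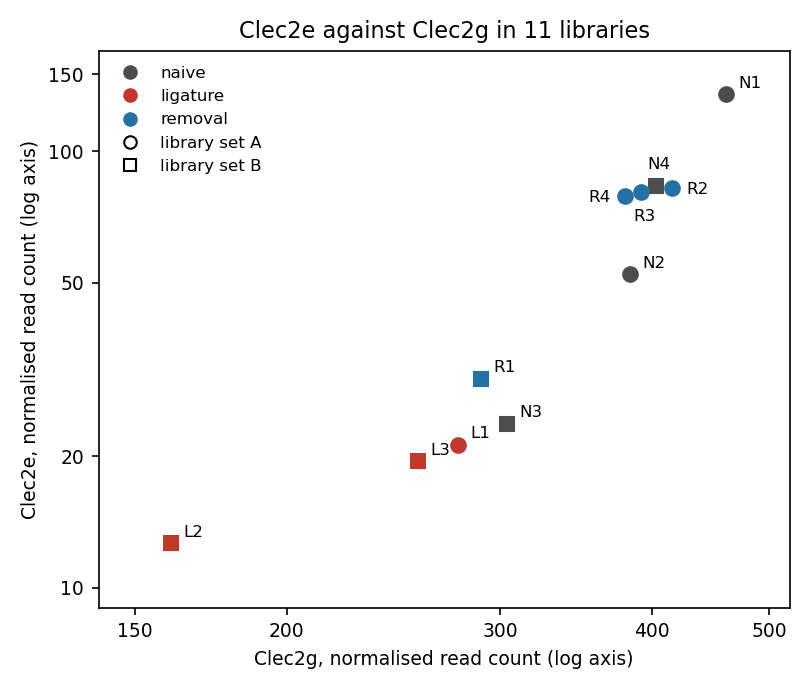
Normalised read count of Clec2e (vertical, log axis) against Clec2g (horizontal, log axis) in the 11 libraries, coloured by group with circles for library set A and squares for set B; N, L and R with a replicate number name the library. Ligature libraries, naive replicate 3 and removal replicate 1 fill the lower left, with Clec2e at 12.65 to 30.15, and the other libraries lie between 52.31 and 135.0.

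The library lowest in both genes within each group, naive replicate 3, ligature replicate 2 and removal replicate 1, came from set B and had the smallest deposited size factor of its group (0.757, 1.03 and 0.896). These 3 libraries were also the lowest of their group in 39.2%, 46.0% and 46.6% of the 176 tested genes. Their part in the result was not tested. Within set A the log2 ratio of means for ligature (n = 1) against naive (n = 2) was -2.14 for Clec2e and -0.61 for Clec2g. Within set B it was -1.74 and -0.76 (n = 2 and 2). For removal against ligature it was 1.92 and 0.52 in set A (n = 3 and 1), and 0.91 and 0.47 in set B, where removal replicate 1 was the only removal library. Removal against naive stood at -0.21 and -0.09 in set A, and at -0.83 and -0.29 in set B.

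On the authors' batch-corrected values the spread of Clec2e within the naive and removal groups was smaller, with SDs of 39.0 and 9.41. Within the ligature group it was larger, with an SD of 14.3 against 4.57 before correction. Ligature replicate 1 went from the highest of its group, at 21.3, to the lowest, at 10.92. The removal mean was 83.7% of the naive mean, against 92.4% before correction. Clec2e stood at 117.3, 39.92, 42.02 and 96.31 in naive, at 10.92, 31.91 and 38.17 in ligature and at 47.82, 68.04, 66.43 and 64.97 in removal libraries. The ligature libraries were still below all others, now with a gap from 38.17 to 39.92. The mean ligature level was 36.5% of the naive mean on this scale, against 24.2% before correction. For Clec2g the corrected ligature values ran from 223.5 to 303.7, below the 330.8 to 382.1 of the removal and the 342.9 to 429.1 of the naive libraries. A library set term in the count fit gave log2 fold changes of -1.89 and -0.69 for ligature against naive and of 1.52 and 0.53 for removal against ligature, for Clec2e and Clec2g, and all 4 were called.

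Among the 163 named genes with a mean normalised count of 10 or more, Clec2g was the second most like Clec2e by Pearson correlation over the 11 libraries, and Clec2e was the third most like Clec2g. The others nearest to Clec2e were Pglyrp4, a peptidoglycan-binding antimicrobial protein (r = 0.93), Bpifa5, a secreted protein with a BPI fold (r = 0.93), Tmprss4, a membrane serine protease (r = 0.93), and Ugcg, the glucosylceramide synthase (r = 0.91). Those nearest to Clec2g were Ugcg (r = 0.95), the heat shock chaperone Hspa1b (r = 0.93), Pglyrp4 (r = 0.92) and Tmprss4 (r = 0.92). Hspa1b has a near-identical copy, Hspa1a, between which reads may be split, so its value is uncertain. The likeness is a description of group differences and library differences that all these genes share.

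In each of these genes the ligature group had the lowest mean, but in Bpifa5, Tmprss4 and Ugcg the ligature libraries were not below all others. Removal replicate 1 was below ligature replicate 1 in all 3 of these genes (137.3 against 175.5 in Bpifa5, 872.1 against 930.4 in Tmprss4 and 2321 against 2381 in Ugcg), and naive replicate 3 of Tmprss4 was too, at 794.9. Bpifa5 went from 926.7 ± 524 in naive to 155.4 ± 40.5 in ligature and 776.1 ± 461 in removal libraries (SD, n = 4, 3 and 4), a range like that of Clec2e. Pglyrp4 went from 528.1 ± 131 to 306.9 ± 43.3 and 531.4 ± 109, close to Clec2g in proportion. Tmprss4 stood at 1362 ± 396, 775.6 ± 155 and 1288 ± 278, and Ugcg at 2815 ± 247, 2230 ± 198 and 2797 ± 329, the smallest change of the set. Naive replicate 3 and removal replicate 1 were the lowest of their groups in all 5 genes, Hspa1b included. Ligature replicate 2 was the lowest in 4 of 5, Bpifa5 being the exception. Over the 176 tested genes the shares were 39.2% for naive replicate 3, 46.6% for removal replicate 1 and 46.0% for ligature replicate 2. With group means taken out, correlations to Clec2e were 0.80 to 0.87 for Pglyrp4, Bpifa5, Tmprss4 and Ugcg. The genes were picked for their likeness to Clec2e or Clec2g over the same libraries, so nothing is read from these counts and correlations.

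**Figure D5:**
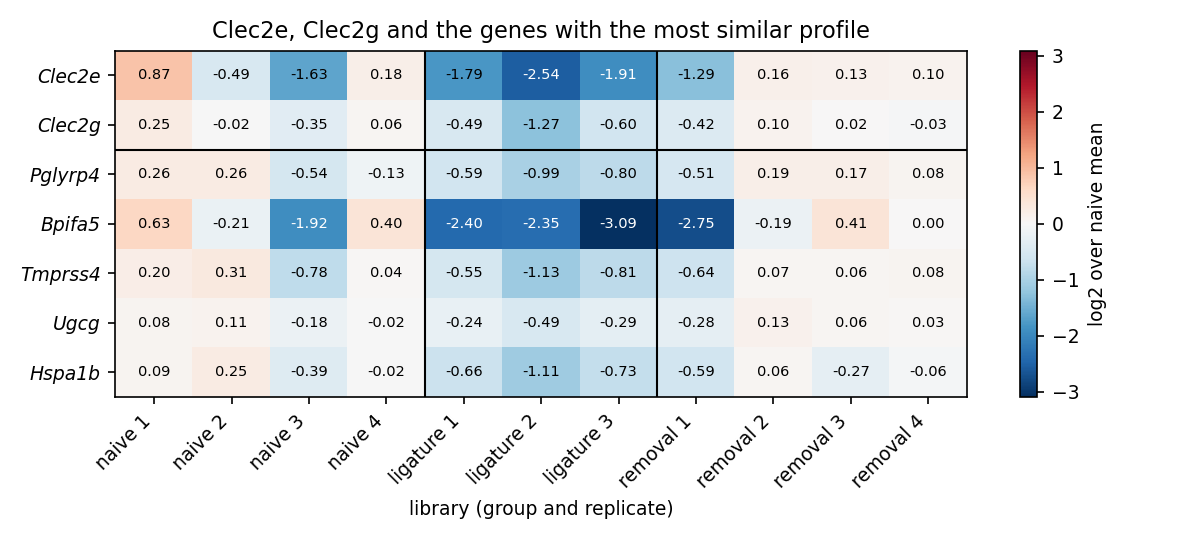
Log2 of the normalised read count over the naive mean of the gene (colour and printed value) in each library (columns, by group) for Clec2e, Clec2g and the 5 other genes with the most similar profile (rows). All 3 ligature libraries and removal replicate 1 are below 0 in every row, as is naive replicate 3, and Clec2e and Bpifa5 have the widest range.

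The rest of the pathway was outside this table. Of 9 listed Clec2 family genes 2 were in it, and of the 5 listed NKR-P1 receptors, 25 other lectin-like genes of the natural killer gene complex and 12 osteoclast regulators 0 were. Their levels were not analysed here. Of 78 listed markers of 16 cell types 2 were in the table, so the epithelial label and the share of other cells could not be checked against defining markers such as Krt5, Krt14 or Cd3e. Krt10, a keratin of suprabasal keratinocytes, stood at 93530 ± 11600 in naive, 145600 ± 37000 in ligature and 132500 ± 32300 in removal libraries (SD, n = 4, 3 and 4). Cd68, a macrophage marker, stood at 286.8 ± 54.6, 179.7 ± 10.2 and 221.9 ± 14.2. Their part in the Clec2 values was not tested.

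Family members are similar enough that reads could in principle be shared. In GENCODE M21 transcripts, Clec2e had 0 of 2050 windows of 50 bases in common with any other gene. The longest Clec2g transcript had 92 of 2414 such windows (3.81%) in common with Clec2d, Clec2i or Clec2j, and 0 of 2364 windows of 100 bases. The Clec2g-203 transcript had 112 of 2355 windows of 50 bases in common (4.76%), also with genes outside the family such as Atg2b and Cog6. It had 0 of 2305 windows of 100 bases in common. A long noncoding gene, Gm15987, is annotated antisense to Clec2g. The library kit keeps strand, but the strand setting of the counting is not given in the sources used here, so antisense reads within Clec2g counts cannot be told apart.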

How the data were processed

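Reads were processed by the authors, whose deposited table gives raw counts (whole numbers), normalised read counts and batch-corrected values for 178 named genes in 11 libraries. The normalised counts deposited by the authors, a signal that is never below 0, are the raw counts over a library's size factor (0.757 to 1.21). The batch-corrected values deposited by the authors share that scale, and 7 of them, in 3 genes, are negative. Per the submitters' processing notes, the tools were HTSeq 2.01, TopHat2 2.1.1, DESeq2 1.36.0 and cutadapt 2.10, with no role stated, and the build was GRCm39. How the genes were chosen and how the correction was made is not given in the sources used here. The reference names held 177 of the identifiers.

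Raw counts were fitted with edgeR 4.0.16 (R 4.3.3; quasi-likelihood F test, two-sided, a mean per group over all libraries, deposited size factors, default filter by group, Benjamini-Hochberg over 176 genes, called at an adjusted p under 0.05). The SE is the log2 fold change divided by the square root of F. The fit was tested on simulated data in which every gene had the same spread beyond counting error. In the real data that spread, as a coefficient of variation, was 0.451 for Clec2e and 0.199 for Clec2g, with a median of 0.152. The simulation therefore does not cover a spread like that of Clec2e. Library sets were read from the deposited correction: of 957 divisions, 1 left almost no residual (4.2e-05% of the mean, next best 1.71%) when corrected values were regressed on normalised ones inside a set. Alternatives used DESeq2 1.42.0, limma 3.58.1 (log2(batch-corrected value + 1)), other factors, no filter, fewer groups or libraries, a library set term and a replicate block. Promoters were aligned with Biopython 1.88. Genes named were Clec2e, Clec2g, members of the lists and the 5 genes with the highest Pearson correlation to each. The members, lists and tests were chosen with earlier results of these data known.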

Additional observations from a re-analysis of the deposited data

Results flagged for a closer look

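Clec2e in removal replicate 1 stood at 30.15 normalised counts, far below the 79.09 to 82.38 of the other 3 removal libraries. Its gap to the nearest of them was 0.937 of the range of the group, above Dixon's 95% critical value of 0.829 for 4 samples. The naive and removal groups of both genes were examined in this way, and chance alone marks about 1 in 20 groups. In Clec2g the same library was also the lowest, at 289.2, with a gap of 0.721 of the range. Removal replicate 1 was the only removal library of set B, had a size factor of 0.896 and was the lowest removal library in 46.6% of the tested genes; their part in this value was not tested. Without it, the Clec2e log2 fold change was 0.12 for removal against naive and 2.17 for removal against ligature.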

How the results depend on the processing

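Ligature against naive kept its direction and its call for Clec2e under all 8 alternatives (-2.05 to -1.43) and with each library left out (-2.33 to -1.58). For Clec2g it was called in 6 of 8 alternatives and with each library left out (-0.90 to -0.54), and the call was lost at -0.39 with TMM and at -0.39 with median-of-ratios factors over the table. TMM moved the median of all tested genes from -0.38 to -0.02 in this comparison, and the share of higher calls from 33.3% to 55.7% (from 34.8% to 68.5% for removal against naive, and from 85.7% to 58.6% for removal against ligature). For removal against naive the sign turned with TMM (0.09 for Clec2e and 0.13 for Clec2g) and with median-of-ratios factors (0.04 and 0.08), and ranged from -0.40 to 0.34 and from -0.17 to 0.03 with a library left out; no alternative called either gene. For removal against ligature all values stayed above 0. The Clec2g call was lost with TMM (0.52), median-of-ratios factors (0.47) and a fit of only the 2 groups (0.67), and the Clec2e call with limma on batch-corrected values (1.32). With a library left out the values ran from 1.73 to 2.17 for Clec2e and from 0.47 to 0.82 for Clec2g.

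The number of genes called for removal against naive was 66, and 126 with the library set term, 122 with limma on batch-corrected values and 38 to 78 with a library left out. For removal against ligature it was 35, and 0 to 49 with a library left out. With the replicate number as a block, the removal against ligature calls of Clec2e (1.92) and Clec2g (0.68) were lost, 8 genes were called, and Clec2e stood at 0.02 for removal against naive. Deviations of same-numbered libraries correlated above 0.1 in 2 of 10 pairs, against 14 of 30 pairs with different numbers. Every pair above 0.1 lay within the same library set, so this count cannot tell whether the numbers pair the libraries. Causes of these changes were not tested. Of the 5 genes most like each gene, 3 were shared with a Spearman ranking. With a ranking on batch-corrected values, all 5 were shared for Clec2e and 3 of 5 for Clec2g. Low counts limit Clec2e most, with 13 to 25 raw counts in the ligature libraries.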
